A study of Mus musculus with 6 samples.

Results

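The 10 epithelial keratin genes described here were followed in whole small intestine of mouse embryos at E18.5. They are 6 keratins of simple epithelium (Krt7, Krt8, Krt18, Krt19, Krt20 and Krt23) and 4 of stratified epithelium (Krt4, Krt5, Krt13 and Krt14). The genes were chosen by name, with earlier results of these data known. Each was read from the deposited table through the array row that carries its symbol alone, the brightest row where there were several. All 10 were found, on 10 rows in all, among 19938 genes and among 52 keratin genes on the array. The study compared 3 control samples, labelled wildtype, with 3 samples in which E-cadherin was conditionally knocked out (cKO). No treatment is named for either group. Cdh1 encodes E-cadherin, through which epithelial cells bind each other at adherens junctions. The sources used here give neither the Cre driver nor the deleted exons, the control alleles or whether a sample is 1 embryo or a pool. Since no label ties a sample to its own animal, the spread behind each p-value is that between these samples and could be technical.

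Keratins are the intermediate filament proteins of epithelial cells. A filament is built from obligate pairs of an acidic type I keratin and a basic type II keratin, and it is anchored at desmosomes and hemidesmosomes. Simple, single-layered epithelia such as the intestinal lining use Krt8 (type II) with Krt18, Krt19 and Krt20 (type I), and Krt7 (type II) is typical of ducts and other simple epithelia. In stratified epithelia the basal layer uses Krt5 (type II) with Krt14 (type I), and the upper layers of oral and oesophageal lining use Krt4 (type II) with Krt13 (type I). Krt23 is a type I keratin found in several simple epithelia.

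The 6 simple keratins were all higher in cKO intestine, by 0.77 to 1.61 on the log2 scale, which is 1.71-fold to 3.06-fold. Of the 4 stratified keratins, Krt14 rose, by 0.78 (1.72-fold), while Krt4, Krt5 and Krt13 did not pass the test. The test was limma, two-sided, with p-values adjusted over all 19938 genes by the Benjamini-Hochberg method and a threshold of 0.05. By this rule 7 of the 10 keratins were called higher and 0 lower (also 0 lower at unadjusted p under 0.05). Among all genes 6.81% were called higher and 7.36% lower, and the median difference was -0.09. These shares also stand beside the counts of called genes in each list below. The median difference was 1.22 over the simple keratins and 0.10 over the stratified keratins. The stratified median was 0.22 with quantile normalization and 0.21 with cyclic loess, and leaving out 1 array it ranged from 0.03 without cKO 1 to 0.19 without cKO 2. The gap between the medians was 1.12, given as a description, since genes are not replicates. The stratified median includes Krt4, Krt5 and Krt13, which read at or near the background level defined below. Krt14, the 1 stratified keratin above that level on all 6 arrays, differed about as much as the simple keratin Krt19 (0.78 and 0.77).

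The array values are the authors' expression values with 2 decimals, read as log2 from their range of 0 to 14.1 because the labels name no scale. Every fold change rests on that reading. Array values carry no read depth, so the number of arrays limits the precision. As a measure of background, the level under which 95% of 1231 olfactory, vomeronasal and taste receptor genes fell was taken on each array. It lay between 5.79 and 6.36, lowest on cKO 2, where these receptor genes were shifted by -0.37 (median, relative to the control mean). Over genes, arrays correlated at 0.981 to 0.987 among controls and 0.972 to 0.978 among cKO samples. Between the groups the correlation was 0.929 to 0.966. Cdh1 read 9.86, 9.82 and 10.15 on control arrays 1, 2 and 3 and 9.70, 8.38 and 8.91 in cKO 1, 2 and 3. The Cdh1 difference of -0.95 (SE 0.31) did not pass the threshold (limma adjusted p = 0.088), and cKO 1 lay close below the lowest control. Cdh1 was called lower in 5 of the 16 alternative settings, and without cKO 1 its difference was -1.30 (limma adjusted p = 0.012). The sources used here do not place its probes relative to the deletion.

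Promoter sequences of the keratins were taken from RefSeq (build GRCm38.p6), as windows of 300 bases from 250 before to 50 after an annotated start. Of the 10 genes 8 had a window, and among the simple keratins these were Krt7, Krt8, Krt18, Krt20 and Krt23. The windows of 3 are printed 5′ to 3′ on the gene's strand. Krt8 and Krt18 are shown because they are genomic neighbours that encode a filament pair of simple epithelia and rose together. Krt20 is shown because its measured difference was the highest of the 10. Capitals mark matches, on either strand, to any of 6 short motifs. The core promoter motifs searched were TATAAA, known as the TATA box, then the CCAAT box, and the GC box spelled GGGCGG in the search. The others were the AP-1 site, spelled TGANTCA here, the TEAD site with the letters GGAATG in this search, and a site of CDX type given by TTTATNG alone.
Krt8 (chr15:102004293-102004592, minus strand): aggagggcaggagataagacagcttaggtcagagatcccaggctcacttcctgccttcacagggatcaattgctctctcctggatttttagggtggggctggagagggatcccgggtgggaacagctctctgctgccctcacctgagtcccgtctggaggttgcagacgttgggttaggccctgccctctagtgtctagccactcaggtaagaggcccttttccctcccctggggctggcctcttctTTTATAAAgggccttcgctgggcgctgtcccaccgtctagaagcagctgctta
Krt18 (chr15:102027966-102028265, plus strand): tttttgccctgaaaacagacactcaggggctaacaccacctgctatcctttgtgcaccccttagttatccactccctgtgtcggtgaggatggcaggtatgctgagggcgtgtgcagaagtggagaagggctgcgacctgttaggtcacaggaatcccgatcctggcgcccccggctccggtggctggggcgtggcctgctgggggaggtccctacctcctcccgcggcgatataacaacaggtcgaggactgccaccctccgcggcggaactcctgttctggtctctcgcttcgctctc
Krt20 (chr11:99438104-99438403, minus strand): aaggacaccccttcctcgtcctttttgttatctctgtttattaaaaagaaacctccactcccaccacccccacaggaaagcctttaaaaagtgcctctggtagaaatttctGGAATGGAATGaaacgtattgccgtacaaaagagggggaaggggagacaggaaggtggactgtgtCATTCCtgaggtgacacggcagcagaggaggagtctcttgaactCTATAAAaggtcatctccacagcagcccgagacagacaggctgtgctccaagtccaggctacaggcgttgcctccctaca

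No motif of the 6 was present in all 5 windows of simple keratins that rose. TATAAA was found in those of Krt8 and Krt20, 2 of 5, and 13.6% of all 32851 promoter windows hold it. The match began 29 bases before the start in Krt20, where it overlaps a match to TTTATNG on the opposite strand. In Krt8 it began 1 base before the start and overlaps a match on the other strand. GGAATG occurred 3 times in the window of Krt20, at 139, 134 and 74 bases before the start, and in none of the other 4. Over all windows 14.7% hold it at least once. GGGCGG was found in the window of Krt7, at 4 places, and 35.7% of all windows hold it. The CCAAT box was found in 0 of the 5 windows, against 37.4% of all, and the AP-1 site in 0 of 5, against 7.8% of all. The windows of Krt18 and Krt23 held none of the 6 motifs. These matches describe letters in the windows as spelled above. Variant spellings of a motif were not searched, and no match was tested for binding.

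Krt8 and Krt18 form the main filament pair of simple epithelia. Krt8 read 11.43, 11.53 and 11.58 on control arrays 1, 2 and 3 and 12.36, 12.36 and 12.55 in cKO 1, 2 and 3. The groups did not overlap, and the gap between the lowest cKO and the highest control value, 0.78, was wider than the range within either group (0.15 and 0.19). The mean of Krt8 was 11.51 ± 0.08 in controls and 12.42 ± 0.11 in cKO (SD, n = 3 each). Krt8 rose by 0.91 (SE 0.11, 95% interval 0.64 to 1.18, limma adjusted p = 0.0031).

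Krt18 read 10.66, 10.28 and 10.35 in controls and 11.32, 11.71 and 11.83 in cKO 1, 2 and 3. Control 1 was the highest control and cKO 1 the lowest cKO value, yet they lay 0.66 apart. Krt18 rose by 1.19 (SE 0.17, 95% interval 0.78 to 1.60, limma adjusted p = 0.0053). The type II partner shifted less than the type I partner, Krt8 minus Krt18 moving by -0.28. Relative to the control mean this quantity spread from -0.31 to 0.17 on the control arrays and from -0.43 to -0.04 on the cKO arrays, so the groups overlapped. The reference table also lists a Krt8 pseudogene, with which probes could share signal.

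Krt19, the smallest type I keratin and the abundant partner of Krt8 along the crypt and villus, was the steadiest of the 10 between replicates. It read 11.58, 11.67 and 11.63 in controls and 12.33, 12.40 and 12.47 in cKO 1, 2 and 3. The range was 0.09 among controls and 0.14 among cKO samples, against a gap of 0.66 between the groups. Krt19 rose by 0.77 (SE 0.11, 95% interval 0.53 to 1.02, limma adjusted p = 0.0041), the lowest of the 6 simple keratin differences.

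Krt7, a type II keratin of ducts and other simple epithelia, read 10.13, 9.48 and 9.56 in controls and 10.89, 11.13 and 10.87 in cKO 1, 2 and 3. Control 1 stood above the other controls, but below the lowest cKO value by 0.74. Krt7 rose by 1.24 (SE 0.19, 95% interval 0.79 to 1.69, limma adjusted p = 0.0063), 2.36-fold.

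Krt23 read 6.60, 6.54 and 6.44 in controls and 7.54, 8.16 and 8.07 in cKO 1, 2 and 3. The controls lay just above the background level on each array, and the cKO values stood clear of it, with a gap between the groups of 0.94, the widest of the 10 genes. Krt23 rose by 1.40 (SE 0.18, 95% interval 0.98 to 1.81, limma adjusted p = 0.0032), 2.63-fold as measured.

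Krt20, a type I keratin of differentiated cells at the villus and the luminal surface, read 7.97, 9.11 and 9.37 in controls and 10.10, 10.79 and 10.40 in cKO 1, 2 and 3. The controls ranged over 1.40, the widest within-group range of the 10 genes, with control 1 the lowest. No cKO value fell within the control range. Krt20 rose by 1.61 (SE 0.36, 95% interval 0.76 to 2.46, limma adjusted p = 0.026). The call was lost without control 2, cKO 2 or cKO 3 (limma adjusted p = 0.063, 0.064 and 0.073), with differences of 1.76, 1.43 and 1.63.

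**Figure D1:**
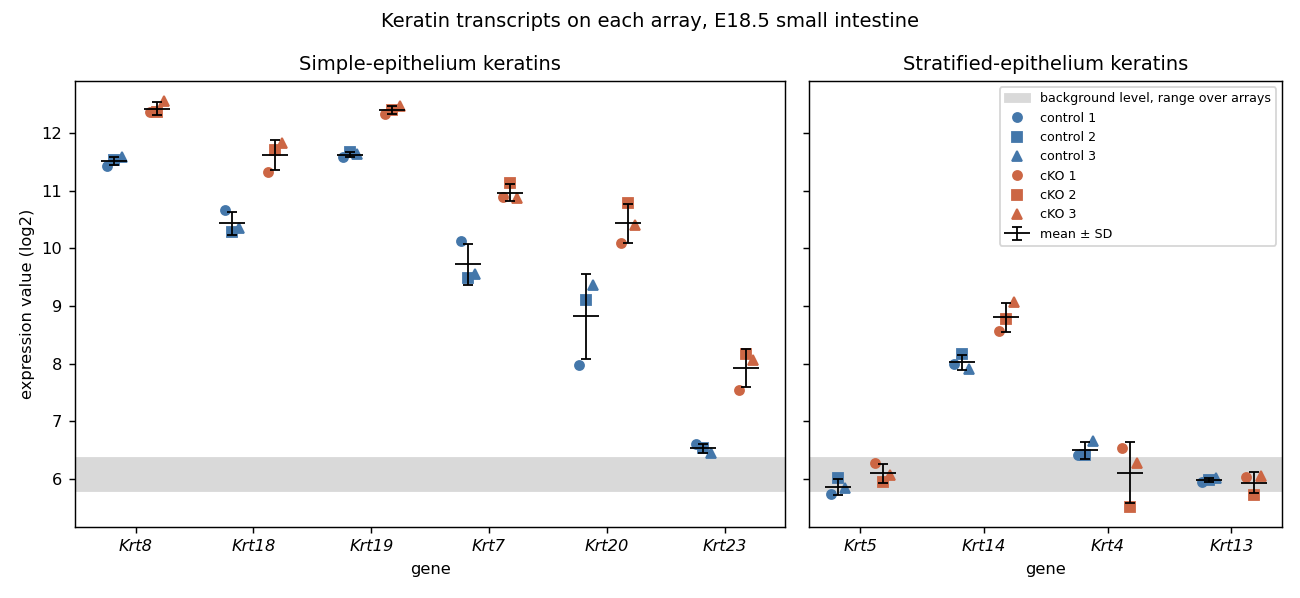
Expression value (log2) of each keratin on the 3 control arrays (blue) and 3 cKO arrays (orange), with mean ± SD as black bars and the range of the background level over arrays as a grey band. The cKO points of the 6 simple keratins and of Krt14 lie above all control points, whereas Krt4, Krt5 and Krt13 lie at or near the grey band in both groups.

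Krt14, the type I keratin of basal cells in stratified epithelium, was above background on all 6 arrays. It read 7.99, 8.17 and 7.91 in controls and 8.57, 8.77 and 9.07 in cKO 1, 2 and 3. The groups were 0.40 apart, the smallest gap among the 7 keratins that rose. Krt14 rose by 0.78 (SE 0.16, 95% interval 0.41 to 1.15, limma adjusted p = 0.017). The call was lost without control 1, control 3 or cKO 3 (limma adjusted p = 0.058, 0.075 and 0.053), with differences of 0.76, 0.72 and 0.65. Krt14 has close relatives in Krt16 and Krt17, and probes could share signal among them, so its value is uncertain to that extent.

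Krt5, the type II partner of Krt14, read 5.73, 6.01 and 5.84 in controls and 6.27, 5.95 and 6.07 in cKO 1, 2 and 3. All controls and 1 cKO array lay at or below background, and the groups overlapped. The Krt5 difference was 0.24 (95% interval -0.08 to 0.55, limma adjusted p = 0.30). Krt5 minus Krt14 moved by -0.54, with shifts of -0.14, -0.66 and -0.84 on cKO 1, 2 and 3 against -0.10 to 0.09 on the controls. This gap between partners was not tested, and the size of the Krt5 difference is not exact with its controls at background.

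Krt4 and Krt13, the pair of the upper layers of oral and oesophageal lining, were at or near background. Krt4 read 6.41, 6.41 and 6.66 in controls and 6.53, 5.52 and 6.27 in cKO 1, 2 and 3. The low cKO 2 value came from the array whose receptor genes were also low. Krt4 lay further down there, at -0.97 relative to its control mean against a receptor median of -0.37. The Krt4 difference was -0.39 (95% interval -0.98 to 0.20, limma adjusted p = 0.36). Krt13 read 5.94, 5.98 and 6.02 in controls and 6.04, 5.72 and 6.05 in cKO 1, 2 and 3, below background on all 6 arrays. Its difference was -0.04 (95% interval -0.34 to 0.26, limma adjusted p = 0.85), with a sign that changed between normalizations.

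**Figure D2:**
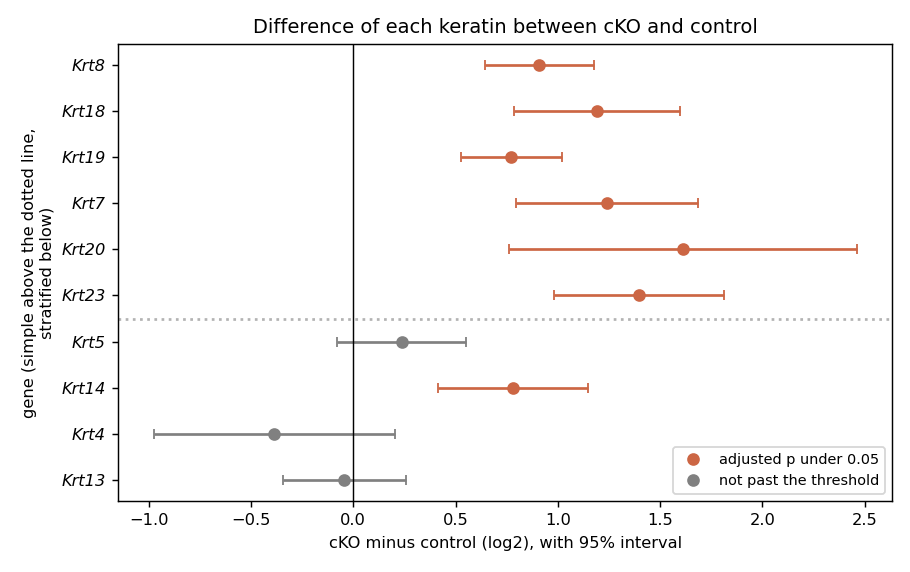
Difference between cKO and control means (log2) for each keratin, with limma's 95% interval, 3 arrays per group. The 6 simple keratins lie between 0.77 and 1.61 with intervals above 0, and among the stratified keratins Krt14 at 0.78 is the one whose interval lies above 0.

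Array by array, the simple keratins stood apart on each cKO sample. The median of their values relative to the control mean was 0.95, 1.34 and 1.27 on cKO 1, 2 and 3, against -0.04 to 0.02 on the controls. For the stratified keratins it was 0.24, -0.09 and 0.14 on cKO 1, 2 and 3, against -0.06 to 0.07 on the controls. The simple minus stratified gap was thus 0.72, 1.43 and 1.13 on the cKO arrays. Of the 4 stratified keratins, Krt4, Krt5 and Krt13 were at or near background, and the negative stratified median of cKO 2 came from the array whose receptor genes were shifted down, so no order of the arrays is read from this gap. In all 7 keratins that were called, the 3 cKO values lay above the 3 control values, as they did for 16.0% of all genes. An exact two-sided permutation test gives p = 0.1 for each of these 7, the smallest that 3 against 3 allows.

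The other 42 keratins on the array, those of epidermis, hair and inner root sheath among them, had a median difference of -0.16. That median lay between -0.14 and -0.07 with 3 other normalizations. Of the 42, 18 were at or below background on all 6 arrays, and 13 were above it on all 6. Of these 42 genes, 1 rose and 0 fell (3 higher and 4 lower at unadjusted p under 0.05). The gene that rose was Krt17, a type I keratin induced in wounded and stressed stratified epithelium, at 0.83 (SE 0.23, limma adjusted p = 0.0497). It read 6.62, 6.54 and 6.27 in controls and 6.84, 7.38 and 7.71 in cKO 1, 2 and 3. Its call was lost in 8 of 15 alternative settings, leaving out any array other than cKO 1 among them (limma adjusted p up to 0.17). Krt16, often induced with Krt17, differed by -0.46 (limma adjusted p = 0.064) and lay below background on all 6 arrays. Krt24 and Krt222 differed by -0.41 and -0.45 (limma adjusted p = 0.052 and 0.064), also below background.

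Mouse keratins lie in a type I cluster on chromosome 11 and a type II cluster on chromosome 15, which also holds the type I gene Krt18. In the gene order of GRCm38.p6, 5 of 27 measured keratins on chromosome 11 rose and 3 of 25 on chromosome 15. Krt20 and Krt23 were adjacent among the measured keratins, and so were Krt8 and Krt18 at the end of their cluster. Krt7 lay second from the other end. Krt19 and Krt14 were separated by Krt9 at -0.42 (limma adjusted p = 0.26), a keratin of thick epidermis. The median difference over measured keratins was -0.22 in the first cluster and -0.10 in the second. These medians include genes without signal, since 19 of the 52 keratins were at or below background on all 6 arrays.

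**Figure D3:**
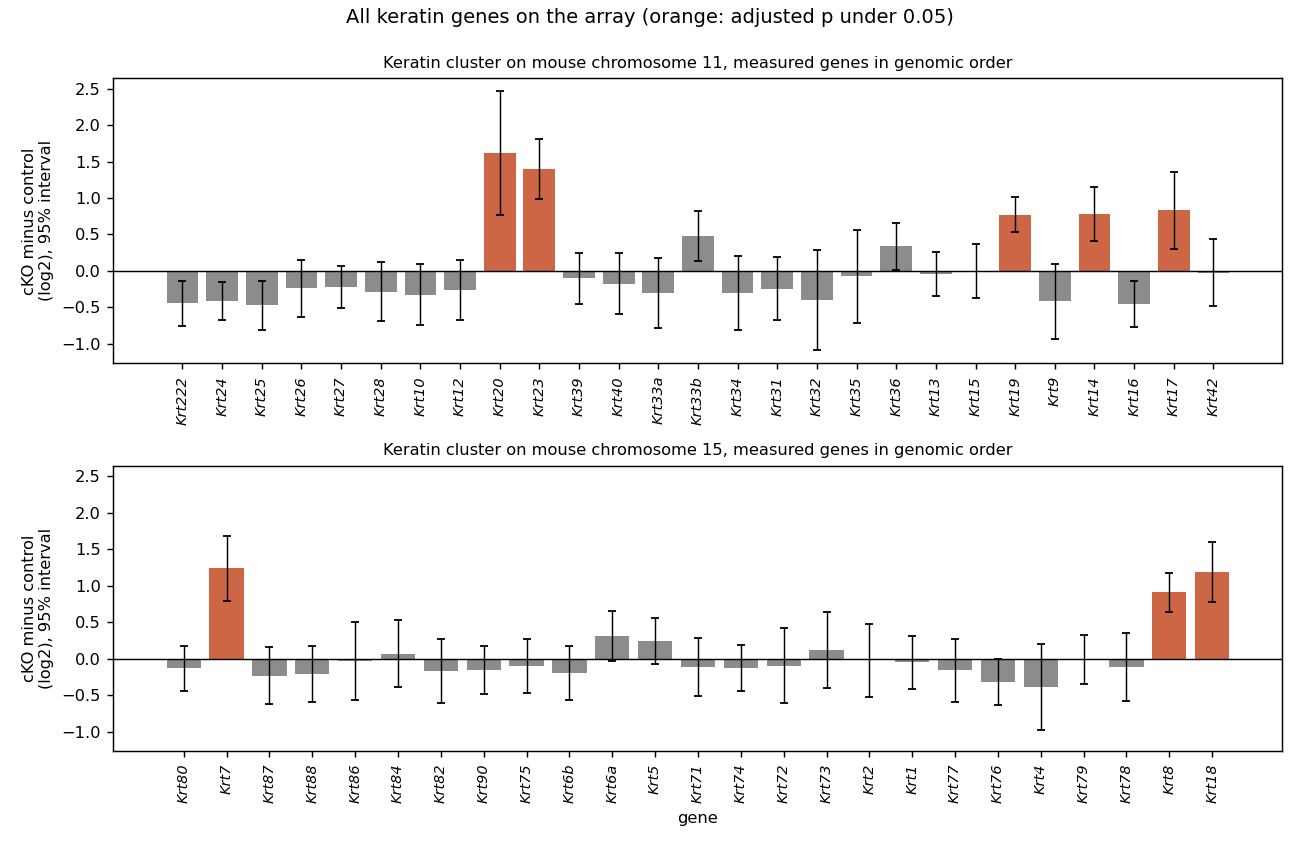
Difference between cKO and control (log2) for the 52 measured keratin genes, in genomic order within the clusters on chromosomes 11 and 15, with limma's 95% intervals. Orange bars passed the threshold: Krt20, Krt23, Krt19, Krt14 and Krt17 in the upper panel, and Krt7, Krt8 and Krt18 in the lower panel.

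Among genes that anchor keratin filaments, 1 of 10 measured desmosome genes rose and 1 fell, which is near the 6.81% and 7.36% of all genes called in these directions. Their median was -0.04, and it was 0.02 with quantile normalization and 0.01 with cyclic loess. Dsg2, the desmosomal cadherin of simple epithelium, rose by 0.89 (SE 0.17, limma adjusted p = 0.014), not called when control 1, control 2 or cKO 3 was left out (0.051, 0.069 and 0.055). Perp, a tetraspan desmosome protein, fell by 0.93 (SE 0.13, limma adjusted p = 0.0040). Pkp2, a plaque protein, differed by 0.40 (limma adjusted p = 0.061). Of 12 filament linkers and hemidesmosome genes 4 rose and 1 fell, with a median of 0.14. Periplakin (Ppl), the spectraplakin Macf1 and the integrin Itga6 rose by 0.70, 0.68 and 0.72, each a call lost without control 2 (limma adjusted p = 0.057, 0.058 and 0.059). Epiplakin (Eppk1), which binds keratin filaments, fell by 1.06 (SE 0.19, limma adjusted p = 0.012).

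Of 15 other intermediate filament genes 5 rose and 0 fell (1 lower at unadjusted p under 0.05), with a median of 0.45. Lmna, which encodes the A-type nuclear lamins, rose by 1.65 (SE 0.18), and Synm, the synemin of muscle, by 1.39 (SE 0.17). Des, the desmin of muscle, rose by 1.35 (SE 0.17) and Nes, the nestin of progenitor cells, by 1.31 (SE 0.13). Limma adjusted p was at or below 0.0030 for these 4. The fifth was Vim. Desmin and synemin are genes of muscle. Of 5 smooth muscle markers, 1 of them Des itself, 5 rose. The 4 without Des had a mean level of 10.87 to 11.16 in controls and 11.79 to 11.94 in cKO. The part of muscle in these filament genes was not tested.

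Of 13 keratinization and cornified envelope genes 2 rose and 0 fell (also 0 lower at unadjusted p under 0.05), with a median of -0.11. Sprr1a read 5.44, 5.25 and 5.60 in controls, at background, and 9.04, 10.34 and 9.47 in cKO 1, 2 and 3. It rose at least 10.1-fold against the mean background level of the control arrays (limma adjusted p = 0.00065). Sprr1b read 6.08, 6.40 and 6.27 in controls, above background on 1 of 3 arrays, and 7.58, 8.30 and 7.55 in cKO 1, 2 and 3. It rose by 1.56 as measured (SE 0.22, limma adjusted p = 0.0044), and the size is not exact with controls at background. Of 13 epithelial transcription factor genes 0 rose and 2 fell (1 higher and 4 lower at unadjusted p under 0.05). Those that fell were Cdx2 and Cdx1, which specify intestinal epithelium, at -0.79 (SE 0.13) and -0.60 (SE 0.13). The Cdx1 call was lost without control 1, 2 or 3 or cKO 3 (limma adjusted p = 0.071, 0.085, 0.063 and 0.078). Trp63, the master regulator of stratified epithelium and of Krt5 and Krt14, differed by 0.02 (95% interval -0.63 to 0.67, limma adjusted p = 0.98).

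The samples were whole intestine, so more epithelial cells and more keratin RNA per cell cannot be told apart. Epcam, an adhesion protein present throughout the intestinal epithelium, read 11.84, 11.93 and 12.05 in controls and 11.81, 11.85 and 11.86 in cKO, a difference of -0.10 (95% interval -0.36 to 0.16, limma adjusted p = 0.59). Of 9 intestinal epithelium markers 0 rose (also 0 at unadjusted p under 0.05) and 3 fell, with a mean level of 10.91 to 11.21 in controls and 10.47 to 10.66 in cKO. Their median difference was -0.31, and it was -0.09 with quantile normalization and -0.12 with cyclic loess. Besides Cdx2 and Cdx1 this was Fabp1, a fatty acid binding protein, at -1.89. Of 7 differentiated enterocyte markers 0 rose (also 0 at unadjusted p under 0.05) and 4 fell, including Lct at -3.16, Fabp2 at -1.68 and Mttp at -0.98. Krt20, which marks differentiated cells, thus rose in samples in which these enterocyte genes fell.

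Markers of other keratin-bearing tissues were read beside the keratins, and none had a value at 0. Of 6 mesothelium markers 3 rose and 0 fell (also 0 lower at unadjusted p under 0.05), with a mean level of 7.46 to 7.68 in controls and 7.96 to 8.49 in cKO. Msln, Lrrn4 and Gpm6a rose by 1.27, 1.21 and 0.83, while the mesothelial genes Upk3b and Wt1 differed by -0.03 and 0.16 (limma adjusted p = 0.94 and 0.58). The Lrrn4 call was kept in all 16 alternatives. That of Msln was lost without control 3 (limma adjusted p = 0.051), and that of Gpm6a without control 1, 2 or 3 or cKO 3 (limma adjusted p = 0.090, 0.069, 0.10 and 0.065). Mesothelium also makes Krt7, Krt8, Krt18 and Krt19, and its part in their rise was not tested. Of 4 urothelium markers 1 rose, Upk1b at 1.03 (limma adjusted p = 0.038), which mesothelium expresses as well. Its call was lost when any array other than cKO 1 was left out (limma adjusted p = 0.078 to 0.14). Upk1a and Upk2 lay below background on all 6 arrays.

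Of 10 squamous epithelium markers 0 rose and 0 fell (also 0 at unadjusted p under 0.05), and 5 lay below background on all arrays. Their mean level was 5.86 to 6.02 in controls and 5.62 to 6.03 in cKO. Of the 10, Sprr3, Lor, Ivl, Krtdap and Calml3 are also among the keratinization genes above. Sprr1a and Sprr1b, which rose, were counted there and not here. Of 9 stomach markers 0 rose and 0 fell (also 0 at unadjusted p under 0.05), with 5 below background on all arrays. Of 6 tuft cell markers 0 rose and 0 fell (also 0 at unadjusted p under 0.05).

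Pancreatic enzyme genes were high on cKO 3. Cpa1, a pancreatic carboxypeptidase, read 10.48 there and 6.53 to 6.86 elsewhere, and Cela2a, an elastase, 10.77 against 5.96 to 6.56. The mean level of the 6 pancreas markers was 9.51 on cKO 3, whereas the remaining arrays gave 5.64 to 6.37. Not all 6 were high there. Sctr, a gene of duct cells, read 6.77 on cKO 3 and 6.36 to 6.99 in controls. Ptf1a read 5.10 on cKO 3, below background. Pancreatic ducts make Krt7, Krt8, Krt18 and Krt19, and their part in the keratin values of cKO 3 was not tested. Without cKO 3 the median difference of the simple keratins was 1.19 against 1.22 with it, and Krt7, Krt8, Krt18, Krt19 and Krt23 were still called. The calls of Krt20 and Krt14 were lost, at differences of 1.63 and 0.65 against 1.61 and 0.78 with cKO 3. Krt20 also lost its call without control 2 or cKO 2, and Krt14 without control 1 or control 3.

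Of 6 mesenchyme markers, 1 of them Vim, 6 rose. The 5 without Vim had a mean level of 10.46 to 10.56 in controls and 11.08 to 11.36 in cKO. Vim, the vimentin of mesenchymal cells, rose by 0.76 (SE 0.13, limma adjusted p = 0.010). The keratins therefore rose in samples whose mesenchymal and muscle genes were higher and whose enterocyte genes were lower.

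**Figure D4:**
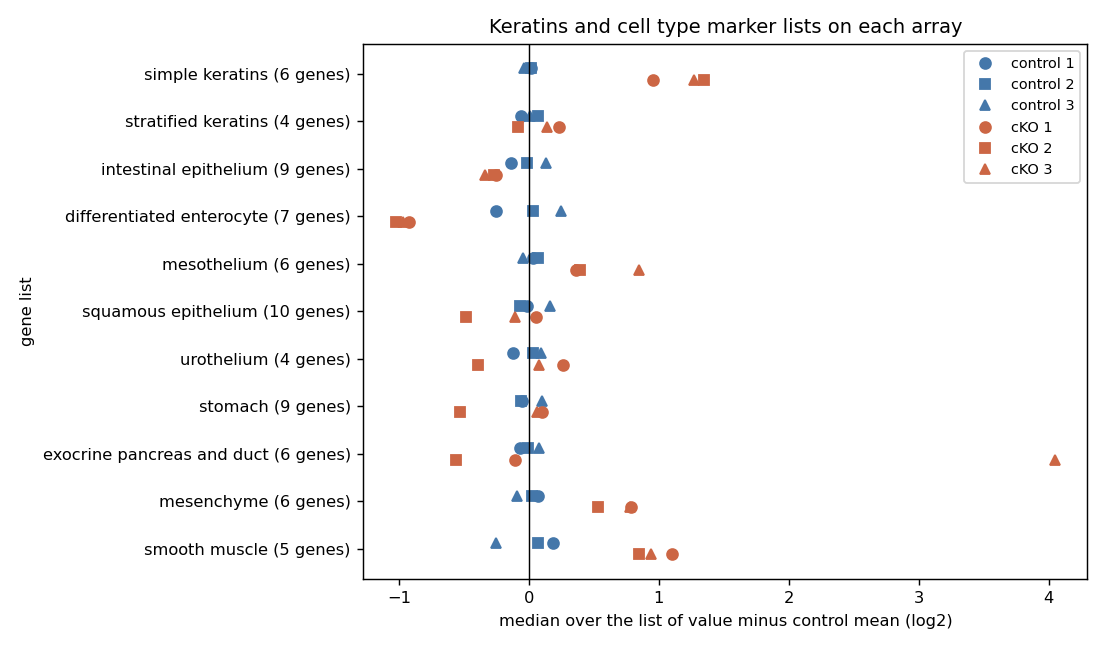
Median over each gene list of the value minus the control mean (log2), 1 point per array, for the simple and stratified keratins and 9 lists of cell type markers. The simple keratins lie at 0.95 to 1.34 on the cKO arrays, the enterocyte markers at -1.02 to -0.92, and the pancreas markers at 4.04 on cKO 3.

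The genes whose 6 values, each relative to its own control mean, lay nearest to those of Krt8 by Euclidean distance were Dusp6, Heg1, Pparg, Lrrfip1 and Sema4d, at distances of 0.08 to 0.19. For Krt18 they were Nt5c2, Adgre1, Adam19, Smox and Anln, at 0.15 to 0.21. Among the 19938 genes no other keratin was within these 5 nearest genes of either.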

How the data were processed

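RNA from whole small intestine was measured on Affymetrix Mouse Gene 1.0 arrays and analysed by the authors with dChip, per the series design text. The sources used here do not give its background correction, normalization, version or genome build. The 35512 probe sets of the deposited table each have 1 value an array, taken as log2 values made by the authors, from their range, and not normalized further. Of the probe sets 21789 had 1 gene symbol, 1621 several and 12102 none in the platform annotation. Gene identifiers gave current symbols for 21698 of them (RefSeq, GRCm38.p6), and the brightest row per gene left 19938 genes.

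The main test was limma 3.58.1 (R 4.3.3) with lmFit and eBayes, no covariate and all 6 arrays. It was tested on simulated data. Members, lists and the background measure were chosen with earlier results of these data known. Named were the 10 keratins, at most 4 genes of each pathway list and of the other keratins and 3 of each marker list (those of smallest p), Cdh1, Epcam and Trp63, and the 5 genes nearest to Krt8 and Krt18. Upk3b, Wt1, Upk1a, Upk2, Krt9 and Sctr were named after their values were seen. Alternatives were 16: 3 normalizations, 2 filters on dim genes, the mean of rows, tests by probe set, an intensity trend, array weights, a replicate block and each array left out.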

Additional observations from a re-analysis of the deposited data

How the results depend on the processing

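Under the 16 alternatives Krt7, Krt8, Krt18, Krt19 and Krt23 were called higher each time they were tested, with limma adjusted p of at most 0.034. Krt20 and Krt14 each lost the call when 1 of 3 arrays was left out and kept it in the other 13. Leaving out 1 array, the number of keratins called higher ranged from 5 to 7 and stayed at 0 for lower. The genes called higher ranged from 509 to 1275 and those called lower from 717 to 1438, against 1358 and 1467 with all arrays. With array weights 2921 and 2913 genes were called. The simple keratin median moved to 1.38 with quantile normalization. The cause of these shifts was not tested. Signs turned for genes that were not called. Krt13 was at 0.077 with quantile normalization, 0.073 with cyclic loess and 0.049 with array weights. Epcam was at 0.023 with quantile normalization and 0.072 with cyclic loess. Leaving out 1 array, Krt13 ranged from -0.10 to 0.065, Trp63 from -0.29 to 0.29, Cpa1 from -0.11 to 1.84 and Cela2a from -0.35 to 2.05, with the lowest of the last 2 without cKO 3. The filter on the dimmer 50% of genes left out Krt4, Krt5 and Krt13, so it gave no stratified median.

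Samples of the 2 groups share replicate numbers in the labels. Deviations from the group means correlated at -0.08, 0.13 and 0.14 for equal numbers, so the numbers were not taken as pairs. With the replicate block 7 keratins were called higher, and 989 genes higher and 1223 lower. The block changed 1 call among the named keratins, that of Krt17 (limma adjusted p = 0.072). Array values give no counting error, and genes at background can differ without a measurable difference.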
